A study of Mus musculus with 16 samples.

Results

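Proteasome subunit genes were followed in mouse plantaris, an ankle plantar flexor of the hindlimb, at rest and under mechanical overload. They were taken as every row of the count table whose symbol is Psma, Psmb, Psmc, Psmd or Psme followed by a number and nothing else, which gave 41 of 17230 genes. Of these, 17 encode subunits of the core particle (7 Psma and 10 Psmb genes), 6 the ATPases (Psmc), 14 the lid and base of the regulatory particle and its chaperones (Psmd) and 4 the activators (Psme). All 41 passed the filter on low counts. The rule used symbols and no values, although it was set with earlier results of these data known.

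The proteasome is the cell's main protease for proteins tagged with ubiquitin. Its core particle is a barrel of stacked rings of alpha (Psma) and beta (Psmb) subunits, with the catalytic sites on Psmb5, Psmb6 and Psmb7 inside. A regulatory particle caps the barrel: its ring of ATPases unfolds the substrate, and its lid removes the ubiquitin chain. Interferon induces Psmb8, Psmb9 and Psmb10, which take the places of Psmb5, Psmb6 and Psmb7 in the immunoproteasome, and the activator subunits Psme1 and Psme2. In wasting muscle, proteasome subunit genes are known to be induced together with the ubiquitin ligases Fbxo32 and Trim63.

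The 4 groups crossed genotype with surgery: wild type (WT) or TRIM28 mKO (KO) mice, each after a sham operation (Sham) or myotenectomy (MTE), the overload. All mice were 9 to 12 weeks old. TRIM28 is a corepressor of transcription. The labels name neither the strain nor the promoter that drove the deletion. The tables held 15 libraries, 3 of KO Sham and 4 of every other group. The KO Sham columns could not be matched to the 4 labelled samples and are called columns 1 to 3. No label ties a library to a mouse of its own, so the spread behind each p-value may be technical. Total counts ran from 21.1 M (M for mega; KO Sham column 3) to 69.2 M (KO MTE 2).

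Trim28 itself was at 27.8 to 49.0 CPM (counts per M library reads, after scaling) in WT Sham and 5.39 to 12.7 in KO Sham, and at 35.3 to 60.9 in WT MTE and 18.0 to 30.3 in KO MTE. The groups did not overlap within either surgery. Trim28 was called lower in the knockout in Sham (log2 fold change -1.84, edgeR adjusted p = 0.0101) but not in MTE (log2 fold change -0.99, edgeR adjusted p = 0.0822). All 7 skeletal muscle fibre markers were detected in every library, at a summed level of 33866 to 95242 CPM. Some libraries stood apart. WT Sham 1 held 3545 CPM of 11 macrophage markers, where WT Sham 2 to 4 held 300.3 to 403.3. KO Sham column 3 and KO MTE 1 departed furthest along the GC content of the transcripts, in opposite directions, as described further on. WT Sham 1 and KO Sham column 3 were left out singly and together, and KO MTE 1 singly. Without KO MTE 1, 2 members were called for overload in wild type and 4 in the knockout, beside 24.3% and 20.3% of all genes. With it the counts were the same, beside 25.3% and 25.9%.

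Promoters were searched for 9-base elements through which some members of the family are known to be regulated. Of the 41 genes, 35 had a promoter (250 bases before to 50 after the start) in RefSeq, build GRCm38.p6. The antioxidant response element TGACNNNGC, bound by NFE2L1 and NFE2L2, was looked for on both strands and lay in 6 of the 35 (17.14%), namely Psmb5, Psmb6, Psmc6, Psmd9, Psmd12 and Psme4. It lay in 13.99% of all 27025 genes with a promoter. The interferon response element GAAANNGAA lay in Psmb3, Psmb4, Psmc2, Psmd4, Psmd9 and Psme1, again 6 of 35, against 9.761% of all genes. The letters of that element were not in the windows of Psmb8, Psmb9 or Psmb10. The elements can overlap other motifs, and a match is a description and no measured site. The matches next to the constitutive core genes Psmb5, Psmb6 and Psmb3 are shown with the element in capitals, on the strand of the gene.
Psmb5, chr14:54618014-54618062, minus strand, antioxidant element: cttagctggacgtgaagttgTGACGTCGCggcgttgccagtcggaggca
Psmb6, chr11:70525328-70525356, plus strand, antioxidant element: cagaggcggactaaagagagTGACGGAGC
Psmb3, chr11:97703252-97703300, plus strand, interferon element on the other strand: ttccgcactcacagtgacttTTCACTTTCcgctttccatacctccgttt

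Overload in wild type lowered the activator Psme4 and raised the assembly chaperone Psmd5, and called no other subunit gene. Thus 2 of 41 members (4.88%) were called in WT MTE against WT Sham at an edgeR adjusted p under 0.05, where 25.3% of the 17212 genes tested were called. In the knockout 4 of 41 (9.76%) were called, Psme4 lower and Psma7, Psmd5 and Psmd13 higher, against 25.9% of all genes. Averaged over genotypes 7 of 41 (17.1%) were called, 6 higher and Psme4 lower, against 44.6% of all genes. In each of the 3 comparisons the share of members called was under that of all genes. In bulk muscle RNA, fewer cells of a type and less RNA per cell cannot be told apart, and overload came with 6 of 6 fibroblast and matrix markers called higher in wild type.

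The members as a whole moved little. The median log2 fold change of the 41 was -0.00094 in wild type, beside 0.036 over all genes tested, with 20 members above 0 and 21 below. In the knockout it was 0.23, beside 0.038 over all genes, with 25 above 0 and 16 below. Without KO Sham column 3 the knockout median was 0.14, beside 0.044 over all genes. With the trend on GC content removed from each library, as described further on, the median of the 41 was 0.087 in the knockout and -0.10 in wild type. The 41 genes together held 3678 CPM ± 265 in WT Sham (SD, n = 4), 3666 ± 361 in KO Sham (n = 3), 3397 ± 458 in WT MTE (n = 4) and 3568 ± 390 in KO MTE (n = 4). These sums overlapped between all groups.

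**Figure D1:**
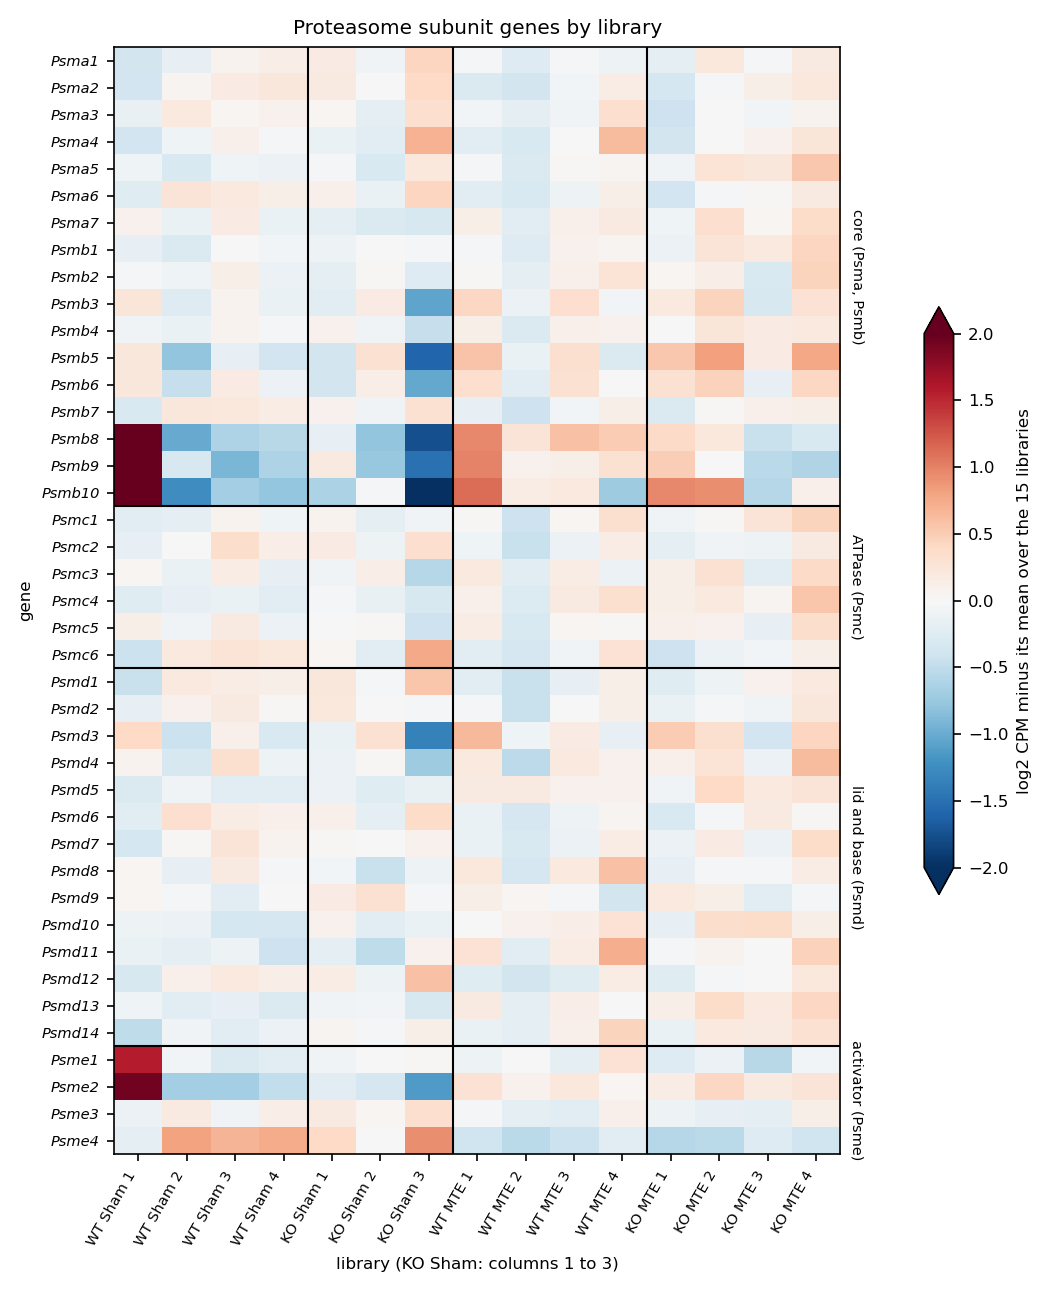
Colour shows log2 CPM of each gene (rows, by class) in each library (columns, by group) minus the gene's mean over the 15 libraries, cut at 2 on either side. Psme4 is above its mean in the Sham libraries other than WT Sham 1 and KO Sham column 2, and below it in all 8 MTE libraries. Psmb8, Psmb9, Psmb10, Psme1 and Psme2 are highest in WT Sham 1.

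Levels between genes were compared per length, as CPM per kilobase of the annotated principal transcript. In WT MTE the constitutive core genes ran from 26.2 CPM per kb (Psma2) to 125.3 (Psmb7), with a median of 63.1 over 14 genes. The 6 ATPase genes ran from 45.3 (Psmc2) to 94.4 (Psmc3). Among the Psmd genes Psmd8, a lid subunit, was highest at 130 ± 32.6 (SD, n = 4). The base chaperones Psmd10, Psmd5 and Psmd9, which leave the regulatory particle before it is complete, were at 7.02 ± 0.61, 6.32 ± 0.22 and 3.30 ± 0.47. Psmb8, Psmb10 and Psmb9 were at 6.20 ± 1.29, 3.81 ± 1.98 and 2.92 ± 0.96. These 6 genes were the lowest of the 41, and the gaps between Psmd5 and Psmb8, between Psmb10 and Psmd9 and between Psmd9 and Psmb9 were smaller than the larger SD of each pair.

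The activators include the member with the largest called change. Psme4 encodes a large single-chain activator that caps the core particle without an ATPase ring and is known for the degradation of acetylated histones. Its level was 311.7, 624.1, 573.5 and 597.8 CPM in WT Sham 1 to 4, and 271.9, 246.0, 263.8 and 307.4 in WT MTE 1 to 4. Every MTE library lay below every Sham library in wild type, although WT MTE 4 came close to WT Sham 1. In the knockout it was 470.8, 353.9 and 683.5 CPM in Sham columns 1 to 3, and 241.2, 246.6, 297.3 and 269.9 in MTE 1 to 4. Again the groups did not overlap.

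Psme4 fell 1.93-fold in wild type (log2 fold change -0.95 ± 0.22 SE, edgeR adjusted p = 0.00638) and 1.91-fold in the knockout (-0.93 ± 0.24 SE, edgeR adjusted p = 0.0121). The difference of these responses was 0.02 ± 0.32 on the log2 scale (interaction, edgeR adjusted p = 0.998). That value moved with the libraries that stood apart: with WT Sham 1 and KO Sham column 3 both removed, the response was -1.18 ± 0.13 in wild type and -0.66 ± 0.14 in the knockout, and their difference 0.52 ± 0.19 (log2, SE; interaction, edgeR adjusted p = 0.548). Per length, Psme4 went from 81.2 CPM per kb in WT Sham, among the more abundant members, to 41.9 in WT MTE, where it ranked 28 of 41. Its wild-type call was kept under all 24 alternatives run, with log2 fold changes from -1.18 to -0.86. In the knockout it was kept under 21 of 22 and lost without KO Sham column 3 (log2 fold change -0.64, edgeR adjusted p = 0.0775). Psme4 shared no annotated exonic base with another gene.

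With all libraries the other activator subunits did not change by the test in either genotype or in the average. In the average, some alternatives called Psme3 lower. Among them were RLE size factors, DESeq2, the fit without WT Sham 1 (log2 fold change -0.24, edgeR adjusted p = 0.0254) and the GC correction (-0.28, edgeR adjusted p = 0.0132). The GC correction also called Psme1 lower there (-0.61, edgeR adjusted p = 0.0337). Psme3 forms a ring of its own in the nucleus and was at 31.2, 38.6, 32.2 and 37.2 CPM in WT Sham and at 32.9, 29.9, 28.9 and 36.5 in WT MTE (log2 fold change -0.12 ± 0.12 SE, edgeR adjusted p = 0.502). Psme1 and Psme2 together form the activator that interferon induces. Psme1 was at 77.9 CPM in WT Sham 1 and at 25.3, 21.5 and 22.8 in the other WT Sham libraries, against 23.1 to 31.9 in WT MTE. Psme2 was at 64.3 CPM in WT Sham 1 and at 10.51, 10.52 and 11.97 in the others, against 20.6, 18.0, 19.4 and 17.2 in WT MTE. WT Sham 1 thus decided the direction for Psme2.

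With all libraries the log2 fold change of Psme2 in wild type was -0.37 ± 0.48 (SE, edgeR adjusted p = 0.614). Without WT Sham 1 it was 0.73 (edgeR adjusted p = 0.00627). In the knockout Psme2 was at 14.5, 13.4 and 7.66 CPM in Sham and at 18.7, 22.4, 19.1 and 20.2 in MTE. These groups did not overlap, and with all libraries the fold change did not pass (log2 fold change 0.75 ± 0.52 SE, edgeR adjusted p = 0.292). All groups share an estimate of the spread for each gene, so WT Sham 1 enters this SE too. Without WT Sham 1 the knockout value was 0.75 ± 0.18 and was called (SE, edgeR adjusted p = 0.00706). Without both WT Sham 1 and KO Sham column 3, Psme2 called higher in each genotype, by 0.73 ± 0.11 in wild type (edgeR adjusted p = 0.000181) and 0.51 ± 0.13 in the knockout (SE, edgeR adjusted p = 0.0113). The wild-type call is not independent of leaving out WT Sham 1, which was itself the high outlier for Psme2. Reads may be split between Psme2 and its near-identical copy Psme2b, which was at 9.63 CPM in WT Sham 1 and 1.497 to 1.805 in the other WT Sham libraries.

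**Figure D2:**
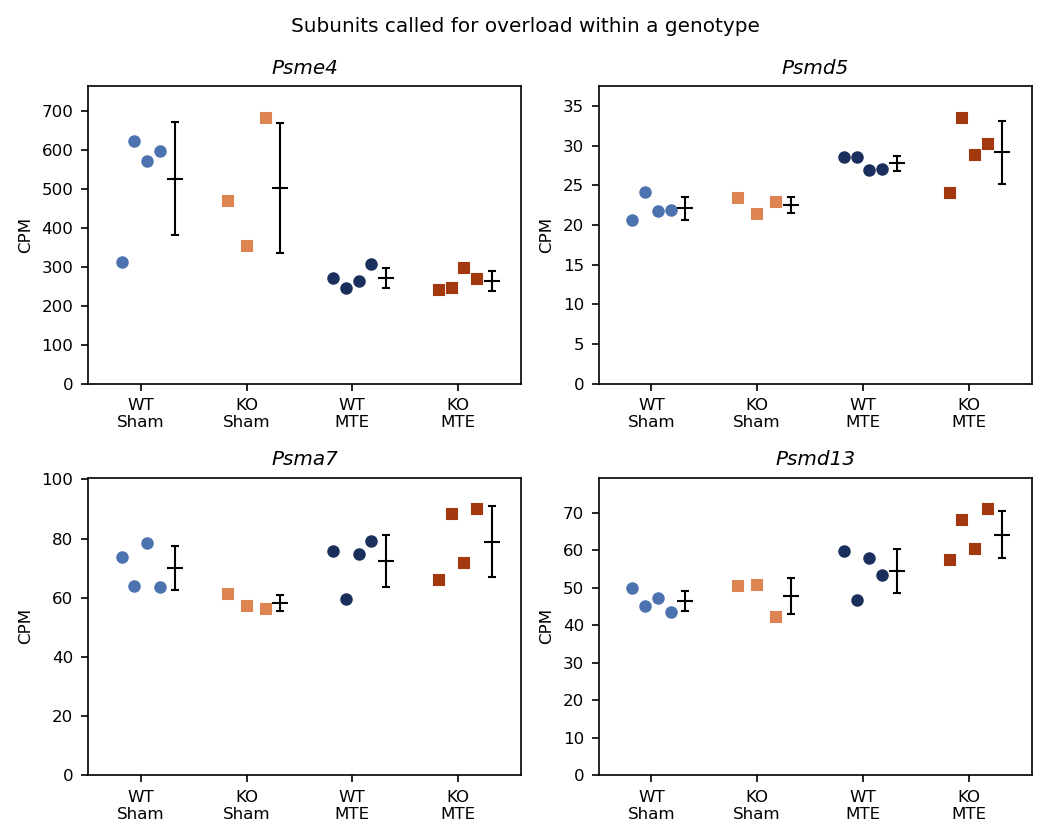
Each point is 1 library and each bar the mean ± SD of a group (n = 4, and 3 for KO Sham), in CPM, for the 4 members called for overload within a genotype. Psme4 lies lower in MTE than in Sham within each genotype and Psmd5 higher, while Psma7 and Psmd13 separate fully in KO only.

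The catalytic core genes of the immunoproteasome followed 1 library. Psmb8, whose product takes over the chymotrypsin-like site, was at 44.9 CPM in WT Sham 1 and at 3.32, 4.32 and 4.52 in the other WT Sham libraries. Psmb9 was at 25.03 CPM in WT Sham 1 and at 2.35, 1.55 and 1.91 in the others. Psmb10 was at 39.1 CPM there and at 1.68, 2.47 and 2.32 in the others. WT Sham 1 was 11.1, 12.9 and 18.1 times the mean of the other 3 for these genes, 3.36 times for Psme1 and 5.84 times for Psme2. Over the other 36 members its ratio to that mean ran from 0.521 (Psme4) to 1.57 (Psmb5), with a median of 0.933.

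Genes that work beside the immunoproteasome moved with it in that library. The 17 genes of antigen processing and interferon response summed to 4320 CPM in WT Sham 1 and to 577 to 693 in the other WT Sham libraries, beside the macrophage markers given above. No macrophage marker was at 0 in any library. Their part in the levels of Psmb8, Psmb9 and Psmb10 was not tested.

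**Figure D3:**
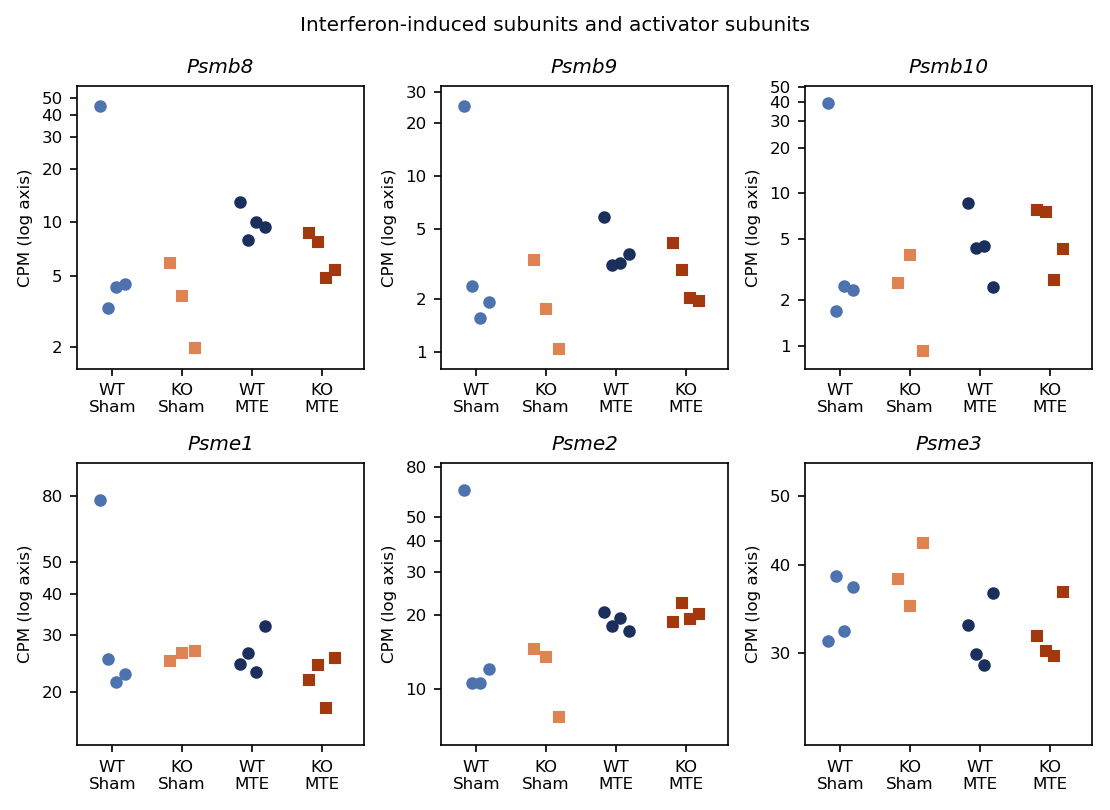
Each point is 1 library, in CPM on a log axis, for the 3 interferon-induced catalytic subunits and 3 activator subunits. WT Sham 1 is the highest of the 15 libraries in each panel but that of Psme3.

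In WT MTE, Psmb8 was at 13.0, 7.94, 10.03 and 9.44 CPM, below WT Sham 1 and above the other 3 WT Sham libraries. With all libraries no fold change of the induced catalytic subunits passed in wild type: -0.50 ± 0.67 for Psmb8, -0.97 ± 0.73 for Psmb9 and -1.19 ± 0.85 for Psmb10 (log2, SE; edgeR adjusted p = 0.630, 0.363 and 0.337). Without WT Sham 1, Psmb8 was called higher by 1.27 (edgeR adjusted p = 0.00620). Without WT Sham 1 and KO Sham column 3, all 3 were called higher in wild type, Psmb8 by 1.27 ± 0.25, Psmb9 by 0.98 ± 0.33 and Psmb10 by 1.17 ± 0.44 (log2, SE; edgeR adjusted p = 0.000968, 0.0284 and 0.0426). WT Sham 1 was itself the high outlier for these genes. Leaving it out moves their fold changes up and narrows their spread, so these calls are not independent of that choice. Macrophage markers summed to 1354 to 1731 CPM in WT MTE, against the 300.3 to 403.3 in WT Sham 2 to 4, and their part in these calls was not tested.

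In the knockout the same 3 genes did not pass. Psmb8 was at 5.93, 3.85 and 1.96 CPM in Sham and at 8.69, 7.73, 4.87 and 5.42 in MTE, groups that overlap (log2 fold change 0.75 ± 0.75 SE, edgeR adjusted p = 0.466). Psmb9 differed by 0.40 ± 0.81 and Psmb10 by 1.14 ± 0.95 (log2, SE; edgeR adjusted p = 0.730 and 0.381). Through the estimate of spread that all groups share, WT Sham 1 enters these SE too. Without that library the knockout fold changes moved little, and the SE were 0.31 for Psmb8, 0.37 for Psmb9 and 0.49 for Psmb10. None of these genes was then called in the knockout either (edgeR adjusted p = 0.0812, 0.428 and 0.0920). KO Sham column 3 was the lowest of the 15 libraries for each of the 3 genes.

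The ratio of each induced subunit to the one it replaces is free of library scaling. Psmb8 over Psmb5 was 1.11 in WT Sham 1, 0.140 to 0.171 in the other WT Sham libraries, 0.232 to 0.332 in WT MTE, 0.0897 to 0.221 in KO Sham and 0.0914 to 0.173 in KO MTE. For this pair every WT ratio in MTE was above every KO ratio in MTE. Psmb9 over Psmb6 was 0.321 in WT Sham 1 and at most 0.0701 in the other 14 libraries, and in MTE it overlapped between WT (0.0390 to 0.0701) and KO (0.0219 to 0.0505). Psmb10 over Psmb7 was 0.306 in WT Sham 1 and at most 0.0614 elsewhere, and in MTE its mean was 0.0357 ± 0.0197 in WT and 0.0369 ± 0.0201 in KO (SD, n = 4). These ratios are a description with no test, and both genes of a pair differ in GC content and length.

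The constitutive core genes showed 1 call within a genotype. Psma7, an alpha-ring subunit, rose in the knockout: it was at 61.4, 57.1 and 56.2 CPM in Sham and at 65.9, 88.3, 71.7 and 89.9 in MTE. The groups did not overlap (log2 fold change 0.44 ± 0.14 SE, edgeR adjusted p = 0.0347). In wild type Psma7 was at 73.9, 63.9, 78.7 and 63.7 CPM in Sham and at 75.7, 59.4, 74.9 and 79.3 in MTE (log2 fold change 0.05, not called). The call in the knockout was lost in 9 of 22 alternatives, among them leaving out any 1 of the 3 KO Sham columns, KO MTE 2 or KO MTE 4, and the GC correction.

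Psmb5, the constitutive chymotrypsin-like subunit, was called only when overload was averaged over genotypes, by 0.67 ± 0.24 (log2, SE; edgeR adjusted p = 0.0350). It was at 40.5, 20.0, 30.9 and 26.5 CPM in WT Sham and at 51.5, 31.7, 43.2 and 28.5 in WT MTE. KO libraries held 26.8, 42.9 and 11.6 CPM in Sham and at 50.2, 61.5, 38.7 and 59.3 in MTE. Both pairs of groups overlap, and KO Sham column 3 was the lowest of all 15 libraries. The call was lost in 9 of 15 fits that each left out 1 library: WT Sham 2, 3 or 4, KO Sham column 1 or 3, WT MTE 1 or 3, or KO MTE 2 or 4. Psmb6, the caspase-like subunit, and Psmb7, the trypsin-like subunit, were not called in any of the 7 comparisons; averaged over genotypes their log2 fold changes were 0.38 ± 0.17 and -0.16 ± 0.11 (SE).

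Over the 14 core genes other than the induced 3, the log2 fold changes in wild type ran from -0.21 to 0.39 with a median of 0.069 and no call. In the knockout they ran from -0.20 to 0.95 with a median of 0.24 and 1 call.

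The ATPases showed no call within a genotype. Their log2 fold changes in wild type ran from -0.21 (Psmc2) to 0.29 (Psmc4), and in the knockout from -0.36 to 0.40. Psmc4, an ATPase of the ring that opens the core's gate, was at 58.5, 61.7, 63.3 and 59.4 CPM in WT Sham and at 74.5, 57.3, 78.2 and 86.5 in WT MTE. KO libraries held 68.4, 62.4 and 55.7 CPM in Sham and at 75.0, 79.0, 72.2 and 102 in MTE. The MTE libraries were the higher ones except WT MTE 2, and the knockout groups did not overlap. Averaged over genotypes it was called higher by 0.34 ± 0.10 (log2, SE; edgeR adjusted p = 0.0140), a call lost without WT Sham 1 and KO Sham column 3 together (log2 fold change 0.27, edgeR adjusted p = 0.0519) and under the GC correction (log2 fold change 0.11).

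Psmd5 was the Psmd gene called in each genotype. Its product is a chaperone that holds part of the ATPase ring during assembly of the base. It was at 20.6, 24.1, 21.7 and 21.9 CPM in WT Sham and at 28.6, 28.6, 26.9 and 27.0 in WT MTE, with no overlap (log2 fold change 0.33 ± 0.11 SE, edgeR adjusted p = 0.0387). KO libraries held 23.4, 21.4 and 22.9 CPM in Sham and at 24.0, 33.5, 28.9 and 30.2 in MTE, again with no overlap (log2 fold change 0.37 ± 0.12 SE, edgeR adjusted p = 0.0339). The difference of the responses was 0.04 ± 0.16 on the log2 scale (edgeR adjusted p = 0.989).

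Averaged over genotypes Psmd5 rose 1.28-fold (log2 fold change 0.35 ± 0.08 SE, edgeR adjusted p = 0.00301), a call kept under all 21 alternatives run. Within a genotype the calls were less firm: 12 of 24 alternatives kept it in wild type, where the log2 fold change ran from 0.25 to 0.38, and 13 of 22 in the knockout, where it ran from 0.30 to 0.50. In wild type it was lost without any 1 of WT Sham 1, 3 or 4, KO Sham column 1 or WT MTE 1 to 4. In the knockout it was lost without any 1 of the KO Sham columns or of KO MTE 2, 3 or 4. Every one of these values was positive.

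Of the other base chaperones, Psmd10 was called higher in the average alone and Psmd9 in no comparison. Psmd10 was at 8.56, 8.44, 7.17 and 7.25 CPM in WT Sham and at 9.16, 9.75, 10.03 and 11.2 in WT MTE, with no overlap (log2 fold change 0.35 ± 0.15 SE, edgeR adjusted p = 0.0944). Averaged over genotypes it was higher by 0.31 ± 0.11 (log2, SE; edgeR adjusted p = 0.0317), a call kept by 10 of 21 alternatives. Psmd9 was at 7.59 to 9.15 CPM in WT Sham and 6.85 to 9.66 in WT MTE, and 25.5% of its exonic bases are shared with an annotated noncoding gene on the other strand.

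Among the lid subunits Psmd13 and Psmd11 were called. Psmd13 was at 50.5, 50.8 and 42.3 CPM in KO Sham and at 57.6, 68.1, 60.5 and 71.0 in KO MTE, with no overlap (log2 fold change 0.42 ± 0.12 SE, edgeR adjusted p = 0.0213). In wild type it was at 49.9, 45.1, 47.4 and 43.6 CPM in Sham and at 59.9, 46.7, 58.0 and 53.5 in MTE, where WT MTE 2 lay among the Sham libraries. Averaged over genotypes Psmd13 rose 1.254-fold (log2 fold change 0.33 ± 0.08 SE, edgeR adjusted p = 0.00537). This call was kept by 20 of 21 alternatives and lost under the GC correction, where the log2 fold change was 0.10. Psmd13 shares 342 exonic bases with Sirt3 on the other strand, and no source used here says if reads were counted by strand.

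Psmd11 encodes a lid subunit that braces the regulatory particle against the core. It was at 74.3, 71.4, 76.1 and 60.9 CPM in WT Sham and at 99.6, 69.5, 90.0 and 135 in WT MTE, with WT MTE 2 inside the Sham range (log2 fold change 0.48 ± 0.19 SE, edgeR adjusted p = 0.0775). Averaged over genotypes it was higher by 0.40 ± 0.14 (edgeR adjusted p = 0.0311), kept by 14 of 21 alternatives and lost, among others, without WT Sham 4, WT MTE 4, KO MTE 4 or either of KO Sham columns 1 and 2. Psmd6, another lid subunit, had the lowest value of the class in wild type (log2 fold change -0.23 ± 0.15 SE, edgeR adjusted p = 0.301). The 14 Psmd genes had a median log2 fold change of 0.097 in wild type and 0.13 in the knockout.

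**Figure D4:**
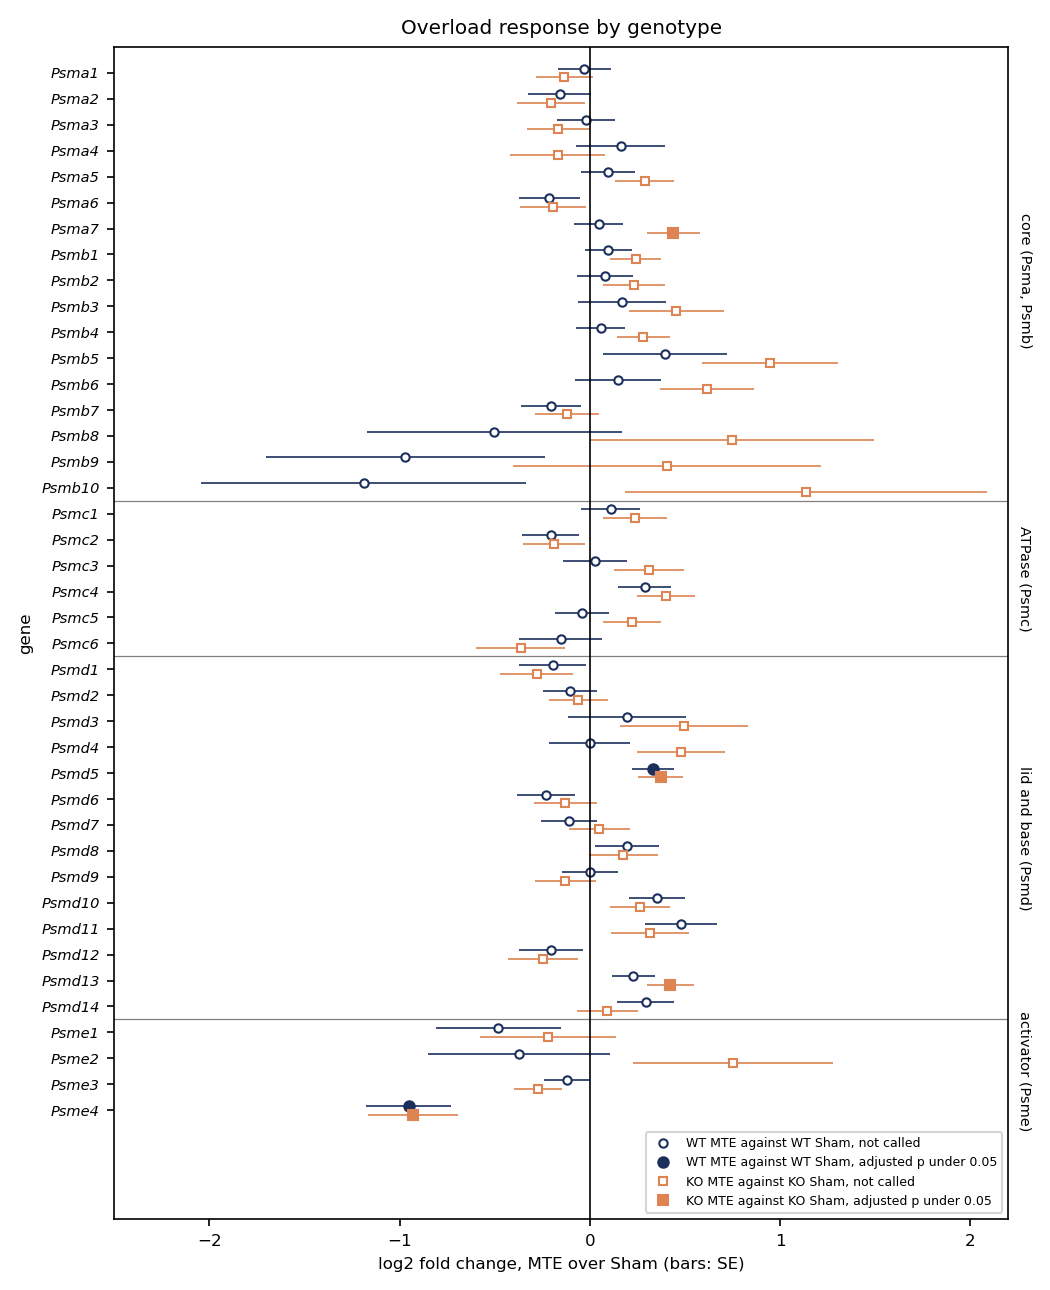
Points are log2 fold changes of MTE over Sham and bars their SE, for WT (circles) and KO (squares), with filled symbols where the edgeR adjusted p was under 0.05. Only Psme4 and Psmd5 are filled for both genotypes, and the long bars belong to Psmb8, Psmb9, Psmb10 and Psme2.

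Counted without a fit, the range of CPM in MTE and in Sham did not overlap for 3 of 41 members in wild type (Psmd5 and Psmd10 higher, Psme4 lower) and for 6 of 41 in the knockout (Psma7, Psmc4, Psmd5, Psmd13 and Psme2 higher, Psme4 lower). Over all genes tested the shares were 24.7% and 36.2%.

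Leaving out both libraries that stood apart changed which members were called. In wild type 10 of 41 were then called, against 44.4% of all genes tested, where 25.3% had been called with all libraries. They were higher for Psmb8, Psmb9, Psmb10 and Psme2 and lower for Psma6, Psmb7, Psmd1, Psmd6, Psmd12 and Psme4. The 5 lower calls other than Psme4 were for genes with log2 fold changes between -0.37 and -0.35. For these genes (Psma6, Psmb7, Psmd1, Psmd6 and Psmd12) WT Sham 1 was at 0.736, 0.707, 0.661, 0.748 and 0.725 times the mean of the other WT Sham libraries. Their calls are thus not independent of leaving out WT Sham 1 either. In the knockout 2 were called, Psme2 and Psme4, against 23.7% of all genes. Without KO Sham column 3 alone, 0 were called in the knockout, against 12.9% of all genes. Psme4 was the member called in both genotypes with and without the pair of libraries.

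Across the 41 members the departure of several libraries from the mean of all libraries followed the GC content of the transcript, to an extent that varied between libraries. Pearson's r was over 0.5 in size in 8 of 15 libraries, 4 of each sign, and lowest in size in KO Sham column 2 (0.144). In KO Sham column 3, r between GC content and the departure in log2 CPM was -0.774, in KO MTE 1 it was 0.780 and in WT MTE 1 0.701; over 17192 genes it was -0.554, 0.541 and 0.416. These are descriptions across genes of 1 library, which share that library's preparation and depth. In KO Sham column 3 the GC-rich Psmb10 (56.5% GC), Psmb5 (56.6%) and Psmd3 (58.3%) were at 0.283, 0.332 and 0.364 times the mean of the other KO Sham columns. The 10 GC-richest members had a median ratio to that mean of 0.448 (0.283 to 1.04), and the 10 GC-poorest, among them Psmc6, one of 1.31 (0.948 to 1.82).

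The overload fold changes of the knockout carried such an ordering. Over the 41 members r between GC content and the log2 fold change was 0.660 for overload in the knockout and -0.0972 in wild type. The wild-type r includes the GC-rich Psmb8, Psmb9 and Psmb10, whose negative fold changes rest on WT Sham 1. By library, r was 0.539, -0.619, -0.336 and -0.588 in WT Sham 1 to 4. In WT MTE 1 to 4 it was 0.701, 0.313, 0.531 and -0.323. A low r in wild type thus does not show that its fold changes are free of the trend. For genotype it was -0.531 in Sham, -0.0169 in MTE and -0.445 averaged over surgeries, and for the interaction 0.599. With the trend on GC content removed from each library, Psme4 and Psmd5 were still called in both genotypes and in the average: -0.91 and 0.33 in wild type, -0.72 and 0.50 in the knockout, and -0.82 and 0.41 averaged (log2). Psma7 and Psmd13 were then not called in any comparison of overload. In the knockout Psmb5 and Psmd10 were added as higher, and Psmd9 and Psme3 as lower.

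**Figure D5:**
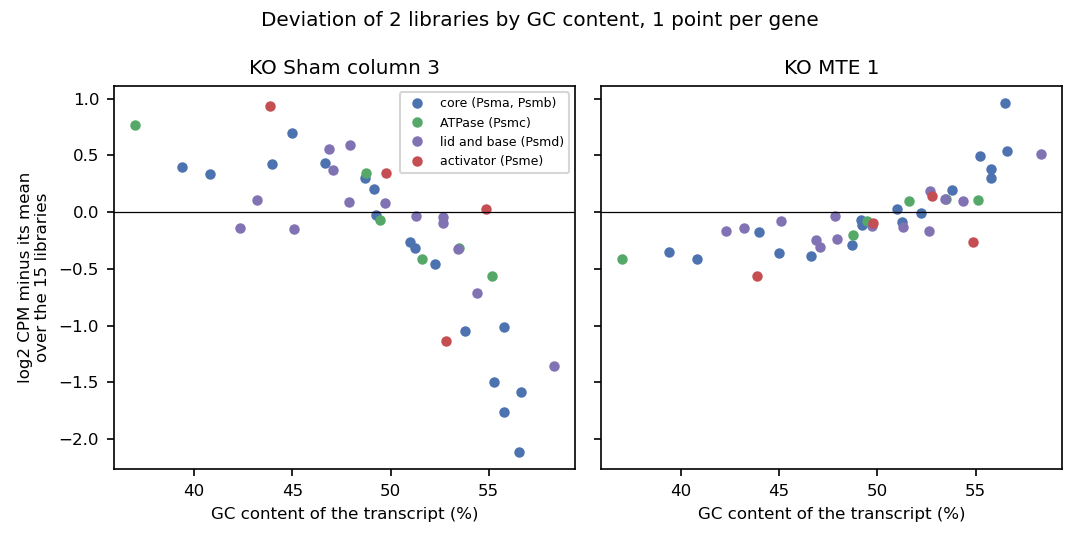
Each point is 1 of the 41 genes, with the GC content of its transcript in percent on the x axis and its log2 CPM minus its mean over the 15 libraries on the y axis, in KO Sham column 3 (left) and KO MTE 1 (right). Values fall with GC content in the first library (r = -0.774) and rise with it in the second (r = 0.780).

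The knockout changed no proteasome subunit gene by the test at either surgery. In Sham 0 of 41 were called against 0.511% of all genes, in MTE 0 against 1.47%, and averaged over surgeries 0 against 3.37%, and DESeq2 and limma voom also called 0 in each. At an unadjusted p under 0.05 edgeR had 3 members in Sham (7.32%, against 10.8% of all genes), 1 in MTE (2.44% against 12.7%) and 2 in the average (4.88% against 19.0%). The 3 in Sham were Psmb8, Psmb9 and Psmb10, with log2 fold changes of -1.85 ± 0.77, -1.89 ± 0.84 and -2.18 ± 0.99 (SE; edgeR adjusted p = 0.406, 0.431 and 0.446), which rest on WT Sham 1. With WT Sham 1 left out these were -0.043 ± 0.34, 0.084 ± 0.41 and 0.23 ± 0.53, and without KO Sham column 3 as well 0.26 ± 0.29, 0.37 ± 0.39 and 0.58 ± 0.50 (log2, SE), with no call. The 1 in MTE was Psma5, an alpha-ring subunit, at 53.9, 45.3, 56.3 and 57.6 CPM in WT and 52.5, 66.8, 64.4 and 80.2 in KO (log2 fold change 0.31 ± 0.14 SE, edgeR adjusted p = 0.379).

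Between the genotypes Psme4 differed by -0.07 ± 0.24 in Sham and by -0.05 ± 0.22 in MTE, and Psmd5 by 0.03 ± 0.12 and 0.07 ± 0.11 (log2, SE). With WT Sham 1 and KO Sham column 3 both removed, Psme4 differed by -0.55 ± 0.15 in Sham (log2, SE; edgeR adjusted p = 0.110) and -0.03 ± 0.12 in MTE. The median of the 41 members was 0.029 in Sham, beside -0.012 over all genes, and 0.094 in MTE, beside -0.060. In MTE 32 of the 41 were above 0 and 9 below, and over all genes tested 7264 were above and 9948 below. The groups did not overlap for 2 of 41 members in Sham (Psmd14, the lid's deubiquitinase, higher in KO, and Psma7 lower) against 7.48% of all genes, and for 0 in MTE against 12.3%.

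The response to overload was not shown to differ between genotypes for any member. The interaction called 0 of 41, and 0% of all genes tested. At an unadjusted p under 0.05 it also held 0 members, against 3.51% of all genes, and DESeq2 and limma voom called 0. The highest difference was that of Psmb10, 2.33 ± 1.28 on the log2 scale (edgeR adjusted p = 0.989), which again includes WT Sham 1. It was -0.052 ± 0.68 without that library and -0.41 ± 0.63 without KO Sham column 3 as well (log2, SE). In that last fit 2 members had an unadjusted p under 0.05 (4.88%, against 8.22% of all genes), and still 0 were called.

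Around the subunits, associated factors and regulators that were called in overload mostly fell. Of 25 assembly and associated factors 21 were tested, and 3 were called in wild type, all lower, of which Ecpas and Zfand5 were also called in the knockout. Ecpas, a scaffold known to bind the proteasome and to act in its quality control, was at 352.7, 647.1, 573.0 and 575.3 CPM in WT Sham and at 266.1, 247.2, 252.4 and 278.1 in WT MTE. The groups did not overlap, and WT Sham 1 was the lowest Sham library, as it was for Psme4 (log2 fold change -1.04 ± 0.20 SE, edgeR adjusted p = 0.00174). Zfand5, a zinc finger protein known to stimulate the proteasome in wasting muscle, differed by -1.39 ± 0.31 (edgeR adjusted p = 0.00546). The calls of Ecpas and Zfand5 in each genotype were kept in all 15 fits that left out 1 library, although in the knockout the log2 fold change of Zfand5 went from -1.50 to -0.95 without KO Sham column 3.

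Ubqln4, a shuttle that carries ubiquitin-tagged proteins, was the other one in wild type (log2 fold change -0.42 ± 0.13 SE, edgeR adjusted p = 0.0302), a call kept in 9 of 15 such fits and lost without any 1 of WT Sham 2 to 4 or WT MTE 2 to 4. In the knockout the third was Akirin2, which is known to carry proteasomes into the nucleus (-0.68 ± 0.23 SE, edgeR adjusted p = 0.0438). Akirin2 was at 26.8, 22.4 and 45.3 CPM in KO Sham columns 1 to 3 and at 18.4 to 21.2 in KO MTE. Without column 3 its log2 fold change was -0.33 ± 0.21 (edgeR adjusted p = 0.310), and the call was kept in 4 of 15 fits, those without WT Sham 1, 3 or 4 or KO Sham column 2. Averaged over genotypes Pomp, the chaperone of core assembly, was called higher by 0.28 ± 0.11 (log2, SE; edgeR adjusted p = 0.0436), kept in 5 of 15 fits, those without KO Sham column 3 or any 1 of WT Sham 1, WT MTE 1, WT MTE 2 or KO MTE 1. Psmg2, another core chaperone, was called higher in the knockout averaged over surgeries, by 0.44 ± 0.09 (edgeR adjusted p = 0.0167), at 7.79 to 9.35 CPM in WT Sham and 11.6 to 11.8 in KO Sham.

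Of 11 regulators of proteasome genes, 2 were called in wild type and 4 in the knockout, all lower. Ddi2, the protease that activates NFE2L1, differed by -0.78 ± 0.22 in wild type and -0.69 ± 0.24 in the knockout (edgeR adjusted p = 0.0191 and 0.0455). In the knockout Ddi2 was at 95.2, 78.3 and 178 CPM in Sham columns 1 to 3 and at 63.0 to 83.5 in MTE, and without column 3 its log2 fold change was -0.26 ± 0.19 (edgeR adjusted p = 0.380). Its wild-type call was lost without WT Sham 3, WT Sham 4 or WT MTE 2. Foxo4 differed by -1.16 ± 0.15 and -0.95 ± 0.16 (edgeR adjusted p = 0.000135 and 0.00124), and Foxo1 and Foxo3 were called in the knockout alone, with no difference between genotypes called. Without KO Sham column 3, Foxo4 was the 1 regulator called in the knockout. NFE2L1's own gene was at 402.5 to 461.2 CPM in WT Sham and 359.8 to 499.8 in WT MTE, groups that overlap.

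Of 17 muscle ubiquitin ligases, 3 were called lower in wild type and 2 in the knockout. Fbxo32 was at 377.6, 555.9, 1215 and 1357 CPM in WT Sham and at 163.9, 137.9, 279.7 and 205.8 in WT MTE (log2 fold change -2.15 ± 0.45 SE, edgeR adjusted p = 0.00337). Trim55 fell by 0.66 and Fbxo31 by 0.97 in wild type on the log2 scale. In the knockout the 2 were Fbxo32 and Trim55, and without KO Sham column 3 neither was called (log2 fold changes -1.28 and -0.38, edgeR adjusted p = 0.0725 and 0.147) and Fbxo31 was (-0.70, edgeR adjusted p = 0.0447). Trim63 was not called and overlapped between Sham and MTE. In MTE, Trim55 was higher in KO than in WT by 0.69 ± 0.14 (edgeR adjusted p = 0.0234), a call lost without any 1 of WT MTE 1 to 3 or KO MTE 2 to 4. Of 9 tested genes for ubiquitin and the p97 segregase, none was called within a genotype. Counts of these lists stand beside 25.3% of all genes called in wild type and 25.9% in the knockout.

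Of the 17 antigen processing and interferon genes, 3 were called in wild type: Calr and Pdia3 higher, which are chaperones of the endoplasmic reticulum, and Igtp lower. Igtp, an interferon-induced GTPase, was at 880.5 CPM in WT Sham 1 and at 21.1, 17.02 and 13.5 in WT Sham 2 to 4, against 39.4, 16.7, 17.1 and 26.3 in WT MTE. Its lower call thus rests on WT Sham 1: the log2 fold change was -3.23 with that library (edgeR adjusted p = 0.0477) and 0.48 ± 0.35 without it (SE, edgeR adjusted p = 0.300). In the knockout Pdia3 was called. The list's median log2 fold change was -0.44 in wild type and 0.38 in the knockout. With WT Sham 1 left out the wild-type median was 0.94 and 11 of 17 were called, all higher, against 38.9% of all genes. These calls are not independent of leaving out WT Sham 1, the library in which the list's sum was highest. Without KO Sham column 3 the knockout median was 0.078.

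The authors' deposited table held p-values for all 41 members. Its p-value for overload was under 0.05 for 9 of them (22.0%), against 52.0% of its 17217 genes, and 7 of the 9 were the genes called here in the average; the others were Psma7 and Psme3. In the authors' deposited table Psme4 had a p-value for overload of 0.000302 and Psmd5 of 0.000175. Its p-value for the interaction was under 0.05 for 0 members, against 4.26% of its genes, and that for genotype for Psmd13 alone, 2.44% of members against 15.7% of its genes. In the authors' deposited table the adjusted values of KO overload were under 0.05 for Psme2 and Psme4, 4.88% of members against 28.7% of its genes. Its column for WT overload is identical, in all 17217 genes, to that for KO MTE against WT MTE and was not used.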

How the data were processed

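Per the labels' protocols, total RNA of plantaris was depleted of ribosomal RNA and made into libraries with a stranded kit. The authors deposited estimated counts (expected counts) per Ensembl gene, headed as raw reads, and 90.9% of these were whole to within 0.01. STAR, RSEM, edgeR and the build GRCm38 are named, without versions, in the submitters' processing notes. The authors' p-value columns are, per the file headers, those of genotype, overload and interaction and the adjusted values of group pairs. Another 15 columns of log2 values per library were not used.

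Counts were rounded, filtered with filterByExpr by group (17212 genes left), scaled by TMM and fitted as 4 group means over 15 libraries by edgeR's quasi-likelihood method (edgeR 4.0.16, limma 3.58.1, DESeq2 1.42.0, R 4.3.3). Genes with an adjusted p under 0.05 (Benjamini-Hochberg, over all genes tested) were called. The SE is the log2 fold change over the square root of F. CPM are scaled by TMM. The interaction is the KO response to overload less the WT response. Chi-square per gene was at least 38.3 between any libraries of a group, so none were copies. The members, lists and tests were chosen with earlier results of these data known. Full statistics are given for members called in any comparison, the catalytic and activator subunits, and the extremes of each class in wild type. Length is that of the principal and GC content that of the longest coding transcript in GENCODE M21, on GRCm38.

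Alternatives were DESeq2's size factors (RLE), no filter, DESeq2, limma voom, the groups compared alone, a replicate block, each library left out, and WT Sham 1 and KO Sham column 3 left out. A GC correction and the numbered libraries alone were chosen after seeing the data. The fits were checked on simulated counts.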

Additional observations from a re-analysis of the deposited data

Results flagged for a closer look

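In groups of 4, the gap of the highest or lowest library to its nearest neighbour, divided by the range, was set against Dixon's critical value of 0.829. Of 63 groups tested over named members and subunit ratios, 11 passed, where chance gives about 1 in 20; the groups share libraries and are not independent. WT Sham 1 was the library in 10 of the 11. It was high for Psmb8 (44.9 CPM), Psmb9 (25.03), Psmb10 (39.1), Psme1 (77.9) and Psme2 (64.3), and for the ratios of Psmb8 over Psmb5 (1.11), Psmb9 over Psmb6 (0.321) and Psmb10 over Psmb7 (0.306). It was low for Psme4 (311.7 CPM, the others 573.5 to 624.1) and Psmb7 (127.6 CPM, the others 175.3 to 184.1). The remaining one was Psmd11 in KO MTE 4, at 111.7 CPM against 79.5 to 85.0 in the other KO MTE libraries. KO Sham has 3 libraries and was not tested.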

How the results depend on the processing

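For overload in wild type 2 members were called (25.3% of all genes). The count was 1 with RLE size factors (26%), with DESeq2 (30.2%) and with the groups compared alone (23.1%). Leaving out 1 library gave 1 to 3, beside 17.5% to 38.9% of all genes. For the knockout 4 were called (25.9% of all genes), and 2 with RLE (26.5%) and with the groups compared alone (22.5%). With 1 library left out the count ran from 0 to 5, beside 12.9% to 34% of all genes. The count of 0, and 12.9% of all genes, is without KO Sham column 3. For the average 7 were called, with a range of 4 to 15 when 1 library was left out; 4 is without WT Sham 4 (39.8% of all genes) and 15 without WT Sham 1 (10 higher, 5 lower; 53.8% of all genes), against 44.6% with all libraries. With both of WT Sham 1 and KO Sham column 3 removed, the counts were 10 in wild type and 2 in the knockout, beside 44.4% and 23.7% of all genes. The GC correction gave 3, 6 and 9, beside 35%, 31.4% and 50.4% of all genes. The genotype comparisons and the interaction stayed at 0 in every alternative run. Without WT Sham 1 the mean ratio in WT Sham went from 0.397 to 0.159 for Psmb8 over Psmb5, from 0.105 to 0.0337 for Psmb9 over Psmb6 and from 0.0855 to 0.0120 for Psmb10 over Psmb7; these moves are under the SD of 4 libraries, which that library sets. With 250 bases before the start alone the motif shares were 14.29% (antioxidant, 11.52% of genes) and 8.571% (interferon, 8.181%), the second 3 of 35 promoters in place of 6.

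With 1 library left out at a time, log2 fold changes ran from -0.83 to 1.27 for Psmb8 and from -0.62 to 0.73 for Psme2 in wild type, and from -0.45 to 0.69 for Psmb9 and from -0.22 to 1.15 for Psmb10 in the average; the highest values, without WT Sham 1, are reversed and called. With both WT Sham 1 and KO Sham column 3 left out the sign reversed for Psmb8 (1.27), Psmb9 (0.98), Psmb10 (1.17) and Psme2 (0.73) in wild type and Psmb10 (0.97) in the average. Both sets follow from the libraries left out.

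Same-numbered libraries correlated in their deviations at -0.11 to 0.46, and number 1 held the highest values (0.29 to 0.46). The labels do not say what a number marks, and these correlations cannot settle if the numbers pair samples. In a fit of the 12 numbered libraries with a replicate block, 2 members were called for overload in wild type (32.1% of all genes). For KO MTE against WT MTE 0 were called (2.13%). Without the block the counts of members were the same, beside 28% and 1.71% of all genes. Low counts limit the induced subunits, which held under 1 CPM in the shallowest library for Psmb10.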
